A study of Mus musculus with 2 samples.

Results

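Myosin heavy chains, light chains, light chain kinases and unconventional myosins of 4T1 cells were compared between a sorted ALDH-positive and a sorted ALDH-negative population. Members were all genes that the array files name Myh, Myl or Myo followed by a number, with or without further letters, or Mylk with or without a number. These names covered 53 of the 22128 genes with a symbol, and 82 of the 55681 probes that are not controls. They fell into 3 classes: 9 genes of non-muscle myosin II, 20 of muscle myosin II and 24 unconventional myosins. The accessions of 67 of the 82 probes were found in a RefSeq gene table, and all 67 carried the same symbol there.

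4T1 is a mouse mammary carcinoma line from a BALB/c mouse, and both populations came from cultured 4T1 cells without a further agent or genotype. Cells were separated by the ALDEFLUOR assay, in which aldehyde dehydrogenase (ALDH) turns a substrate into a fluorescent product that stays in the cell. The library labelled S (cancer stem cell) was taken as ALDH-positive and the library labelled NS (anti cancer stem cell) as ALDH-negative, since the study uses high ALDH activity to mark such cells. Each population gave RNA to 1 array, so no test, p-value or spread between cultures can be given, and ALDH activity cannot be told apart from any other difference between both preparations.

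Myosins are motors that hydrolyse ATP to pull on actin filaments. Conventional myosins, class II, pair heavy chains with essential and regulatory light chains and assemble into bipolar filaments. The muscle forms drive the sarcomere or smooth muscle contraction, and the non-muscle forms drive cortical tension, cytokinesis and cell migration. Unconventional myosins do not form such filaments and mostly tether or carry membranes, organelles and other cargo along actin. In epithelial tumour cells, non-muscle myosin II is switched on by phosphorylation of its regulatory light chains, through kinases such as MLCK and ROCK, and is switched off by myosin phosphatase.

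Signals below are intensities after quantile normalization of both arrays, and a log2 ratio is always the ALDH-positive over the ALDH-negative signal of 1 probe. A gene was measured where a probe was well above background on at least 1 array, and a gene with several such probes is given by the brightest. The error of a log2 ratio, given as ±, combines the signal errors of the scanner software on both arrays and covers measurement error only. For bright probes it stood at 0.20, which comes from a fixed multiplicative term of 10%. A gene was selected as higher where its Z-score reached 2.0 and its ratio also reached 1.5. It was selected as lower where the Z-score was at or under -2.0 and the ratio at or under 0.75. The Z-score sets a log2 ratio against the 250 probes on either side in mean signal. Probes differ in how well they bind, so signals of different genes do not rank their amounts of RNA. Signals summed over a list weigh its brightest probes most.

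Both arrays held 59305 spots that are not controls, and 48.5% and 49.4% of the probes were well above background on the ALDH-negative and ALDH-positive array. No spot was saturated. Over the measured probes, the log2 ratio had a median of 0.49 before and 0.015 after normalization. The far edge of the array, here the final eighth of its rows or of its columns, held 24.4% of the measured probes. Of these, 3.76% were selected as higher against 0.708% elsewhere, and 4.33% as lower against 2.41% elsewhere. A position in this far edge is given for each named gene whose brightest measured probe lay there, and its part in the results was not tested.

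Of the 53 myosin genes, 35 were measured, 29 of them on both arrays. Myh14 and Myo5b were selected as higher in ALDH-positive cells, 2 of 35 genes, against 1.34% of all 13987 measured genes. Myo3b alone was selected as lower, against 2.05% of all measured genes. With numbers this small, the shares of myosins are a description of these arrays only, and in RNA of sorted cells in bulk, fewer cells that express a gene and less RNA per cell cannot be told apart. The median log2 ratio was 0.075 over the 35 myosins and 0.045 over all measured genes. Log2 ratios larger than their own error were found for 15 of the 35 myosins (42.9%), and for 33.1% of all measured genes. Among the 15, Myl9, Myh4, Myh8 and Myh6 passed the filter on 1 array alone, which favours a wide ratio.

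The classes differed in how much of them was detected. Non-muscle myosin II was measured in full, 9 of 9 genes and 8 of them on both arrays, with a median log2 ratio of 0.11. Of muscle myosin II, 9 of 20 genes were measured and only 4 on both arrays. The median of these 4 was -0.062, and that of all 9, including genes that passed through 1 array alone, was 0.17. Of the unconventional myosins, 17 of 24 were measured, all of them on both arrays, with a median of 0.00050. The class medians thus lay within 0.20 of 0, the error of a single bright probe, and no test of a difference between classes was possible.

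**Figure D1:**
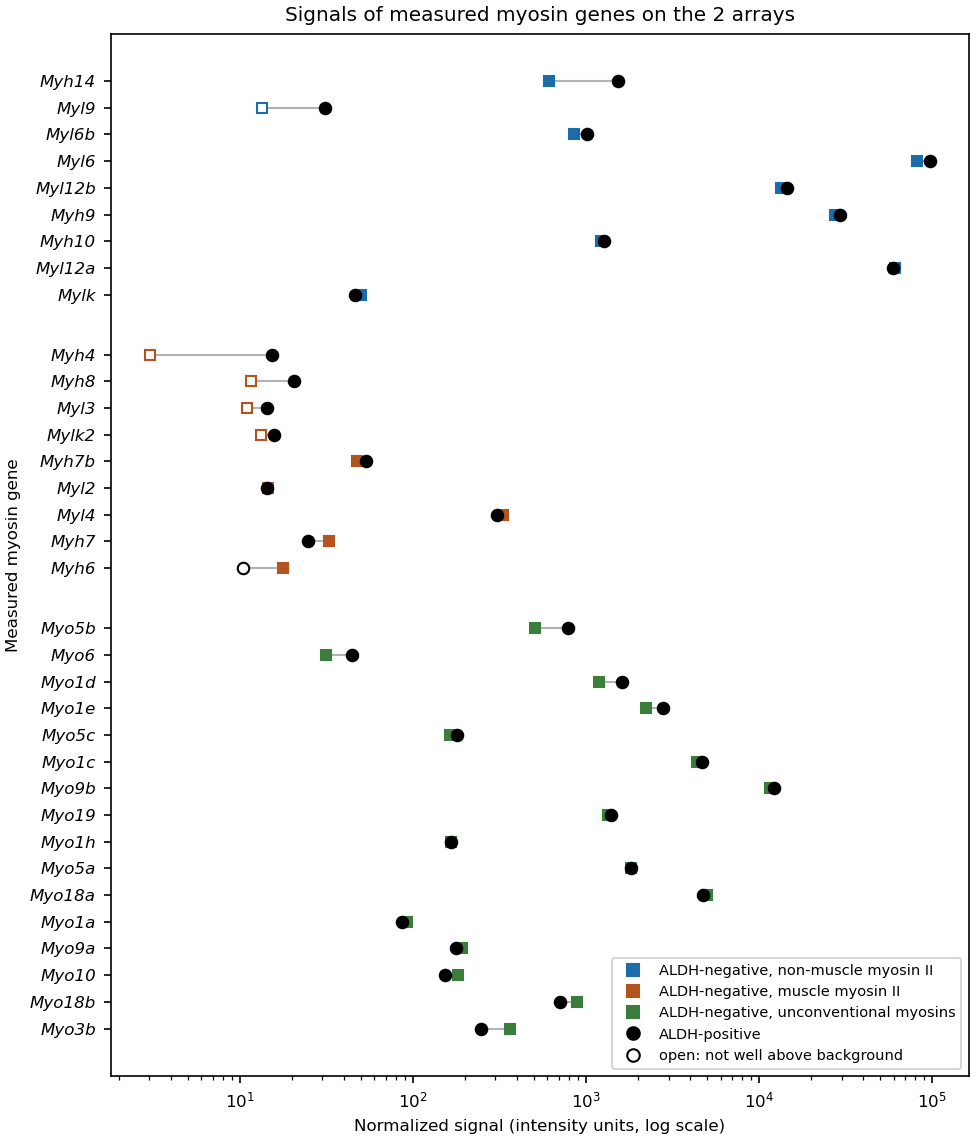
Normalized signals (intensity units, log scale) of the measured myosin genes named in the text, by class. Squares give the ALDH-negative and black circles the ALDH-positive array, 1 array each, and open symbols were not well above background. Most pairs nearly coincide, Myh14 is the widest pair among genes with both symbols filled, and 5 of the 9 muscle genes have an open symbol.

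**Figure D2:**
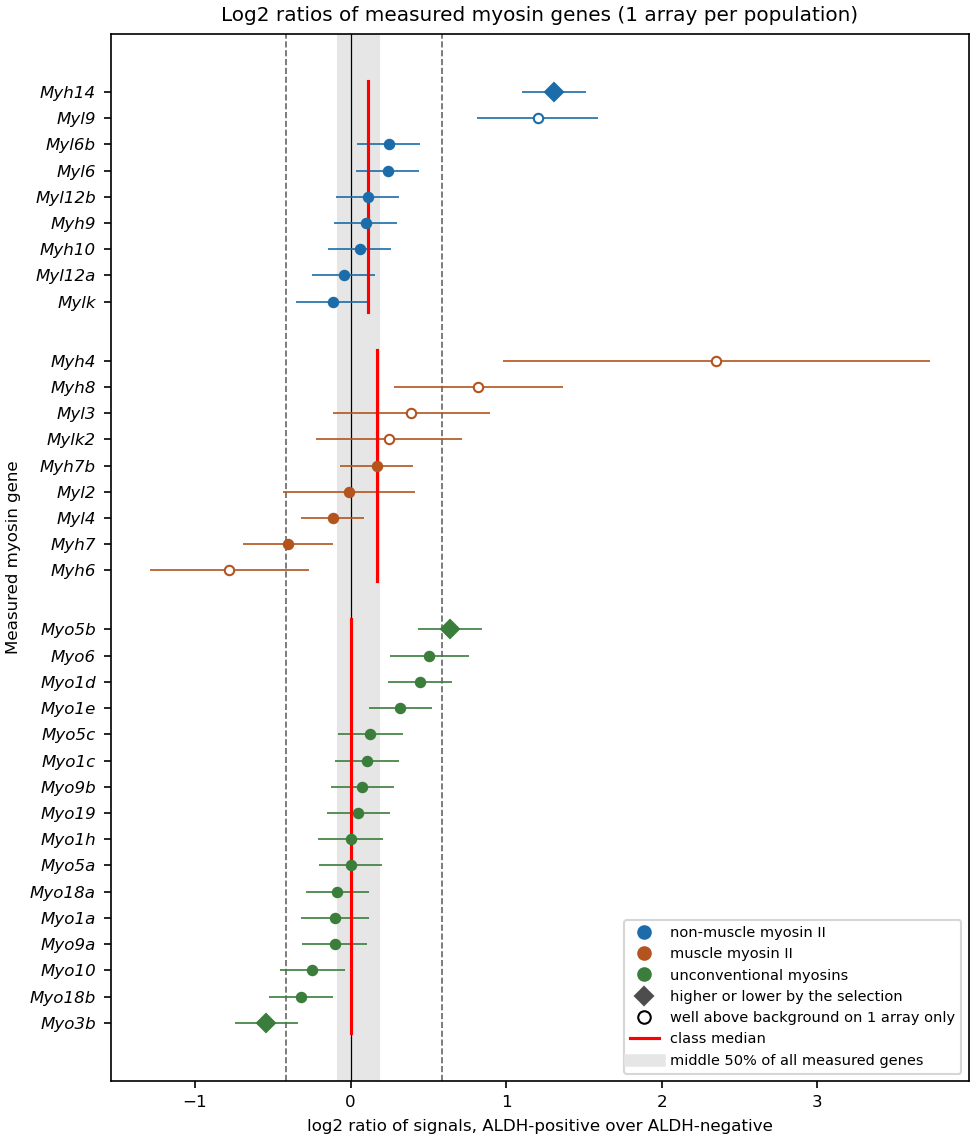
Log2 ratios (ALDH-positive over ALDH-negative) of the same genes. Bars are the scanner software's error of both signals, dashed lines are ratios of 0.75 and 1.5, red lines are class medians, the grey band holds the middle 50% of all measured genes, and diamonds are the genes selected as higher (Myh14, Myo5b) or lower (Myo3b).

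Non-muscle myosin II has 3 heavy chains, and 1 of them stood apart. Myh14, the heavy chain of myosin IIC that is found mainly in epithelia, gave 615 in ALDH-negative cells against 1524 in ALDH-positive ones, with a log2 ratio of 1.31 ± 0.20 and a Z-score of 6.20. Myh9, the heavy chain of myosin IIA, had 27632 and 29539 (log2 ratio 0.096 ± 0.20). Myh10, the heavy chain of myosin IIB, had 1219 and 1270 (log2 ratio 0.058 ± 0.20). The ratio of Myh14 was over 6 times its error, while those of the other two heavy chains were smaller than theirs. Before normalization its log2 ratio was 1.84, on arrays whose measured probes had the median of 0.49 given above.

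The 3 probes behind these values start at bases 6316, 7311 and 7723 of the Myh14, Myh9 and Myh10 transcripts named in the array files. Each carries the hexamer AATAAA, the canonical polyadenylation signal, which 10.1% of all probes and 19.5% of the myosin probes hold. Their last 30 bases are shown 5′ to 3′ with the hexamer in capitals, since the heavy chain comparison rests on these probes.
Myh14 (NCBI37, chr7:51861189-51861248, minus strand): ccctcatgctccagacactaaagaAATAAA
Myh9 (NCBI37, chr15:77591019-77591078, minus strand): tgagcgtcacAATAAAgagtaccatgtcct
Myh10 (NCBI37, chr11:68630067-68630126, plus strand): cagacctcAATAAAcaagaataatcatgtg

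A second Myh14 probe lies upstream of the first in the transcript. Its signal was 12.7 in ALDH-negative cells, not well above background, and 26.9 in ALDH-positive cells. The log2 ratio was 1.09 ± 0.44, at least 2.05-fold higher when set against the lowest signal well above background. This probe lay in the far edge and the bright one did not. The bright probe lay in column 3 of 164, near the opposite border, and that border was not examined separately. Around the bright probe, 90 measured probes within 8 rows and columns had a median log2 ratio of 0.030, and 1 of them was selected as higher. Around the second probe, 161 measured probes had a median of 0.0051, but 19 of them were selected as higher and 12 as lower. That probe also passed the filter through the ALDH-positive array alone, so its direction adds nothing to the value of the bright probe.

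Myh9 differed between its probes. The dim probe of Myh9 had 50.8 in ALDH-negative cells against 29.3 in ALDH-positive ones, with a log2 ratio of -0.79 ± 0.26, against 0.096 for the bright one. In the array files the dim probe starts at base 705 of one transcript entry and the bright probe at base 7311 of another. Both were well above background on both arrays, and both lay in the far edge.

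The light chains of non-muscle myosin II differed less. Myl6, the essential light chain, had 82028 and 96810 on its bright probe (log2 ratio 0.24 ± 0.20) and 36124 and 37168 on the other (log2 ratio 0.041 ± 0.20). Myl6b, a related essential light chain, had 855 and 1013 in the far edge (log2 ratio 0.25 ± 0.20). Of the regulatory light chains, whose phosphorylation activates the motor, Myl12a had 60979 and 59100 (log2 ratio -0.045 ± 0.20) and Myl12b had 13466 and 14526 (log2 ratio 0.11 ± 0.20). The ratio of Myl12a turned to 0.0021 when arrays were scaled to their 75th percentile. None of these 4 genes was selected, and only Myl6 and Myl6b were beyond their error.

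Myl9, the regulatory light chain typical of smooth muscle and contractile non-muscle cells, was the other member of this class with a wide ratio. Its signal was 13.5 in ALDH-negative cells, not well above background, and 31.1 in ALDH-positive cells, a ratio of 2.30. The probe passed the filter through the ALDH-positive array alone, which favours a ratio in this direction. The log2 ratio was 1.20 ± 0.39, and the Z-score of 1.35 left it outside the selection. Without background subtraction the log2 ratio was 0.30. Mylk, the kinase that phosphorylates regulatory light chains, had 49.95 and 46.1 (log2 ratio -0.12 ± 0.24) on one probe and 26.5 and 21.2 (log2 ratio -0.32 ± 0.31) on the other. Neither Myl9 nor Mylk passed the selection.

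Muscle myosins were near the limit of detection. Among the striated heavy chains, Myh7b had 47.5 and 53.4 (log2 ratio 0.17 ± 0.23). Myh7, the heavy chain of slow muscle, had 32.7 and 24.7 (log2 ratio -0.40 ± 0.29). These were the only muscle heavy chains well above background on both arrays, and 1 lay on each side of 0.

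The other three measured heavy chains passed on 1 array alone. Myh4, of the fastest skeletal fibres, had 3.02 in ALDH-negative cells against 15.4 in ALDH-positive ones (log2 ratio 2.35 ± 1.37), which as a bound is at least 1.17-fold higher. Myh8, the perinatal heavy chain, had 11.6 and 20.5 (log2 ratio 0.82 ± 0.55), at least 1.56-fold higher, on a probe in the far edge. Myh6, of heart muscle, had 17.9 and 10.4 (log2 ratio -0.78 ± 0.51), at least 1.41-fold lower. All 3 were dim, and their bounds hold for the signals after background subtraction and quantile normalization only. Without background subtraction the log2 ratios were 0.26 for Myh4, 0.13 for Myh8 and -0.13 for Myh6.

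Of the muscle light chains and kinases, Myl4, the atrial and embryonic essential light chain, was the one clear signal, with 334 and 308 (log2 ratio -0.12 ± 0.20). Myl2, the ventricular regulatory light chain, had 14.5 and 14.4 (log2 ratio -0.0087 ± 0.42). Myl3, the ventricular essential light chain, had 11.01 and 14.4 (log2 ratio 0.39 ± 0.51), with the first not well above background. Mylk2, the kinase of skeletal muscle, had 13.3 and 15.8 in the far edge (log2 ratio 0.25 ± 0.47), likewise above background in ALDH-positive cells only, and its ratio became -0.0081 with the 75th percentile scaling. No ratio among these 4 exceeded its error. The smooth muscle heavy chain Myh11 was not measured on either array, nor were Myh1, Myh2, Myh3, Myh13, Myh15, Myl1, Myl7, Myl10, Mylk3 and Mylk4, with signals between 2.71 and 6.81.

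Muscle markers were checked beside these values. Of 18 striated muscle markers, 8 were measured, and the defining genes Acta1, Actc1, Ckm, Des, Myod1, Myog and Mylpf were not. Ttn, which encodes the giant sarcomere protein titin, was the 1 gene of this list selected, with 114 in ALDH-negative cells against 3.34 in ALDH-positive ones, at least 9.0-fold lower, on a probe in the far edge. The troponin Tnni1 had 5.94, not well above background, and 23.1 (at least 1.75-fold higher), Tnnt3 had 43.7 and 73.5 in the far edge, and Tnnc2 had 54.8 and 40.5. The brightest members were Tnnt2 (7051 and 8825, log2 ratio 0.32) and Tnni2 (2666 and 3284 in the far edge, log2 ratio 0.30), which are named after their values were seen because they make up most of the summed signal of the list, 10000 and 12316. The list median was 0.31.

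Of 10 smooth muscle and myoepithelial markers, 7 were measured, with a median log2 ratio of 0.054 and a summed signal of 18095 and 21237. Krt14, a basal keratin, was selected as higher (695 and 1366, log2 ratio 0.98 ± 0.20), as was Tagln, which encodes the actin-binding protein transgelin (1281 and 1966, log2 ratio 0.62 ± 0.20). Trp63, the basal cell transcription factor, was selected as lower (3951 and 2775, log2 ratio -0.51 ± 0.20) from a probe in the far edge. Smtn had 12088 and 15048 (log2 ratio 0.32 ± 0.20). The defining smooth muscle genes Cnn1, Lmod1 and Myocd were not measured, and Acta2 was near 20 on both arrays. The part of any such cells in the values of Myl9 or of the muscle myosins was not tested.

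All 10 luminal epithelial markers were measured on both arrays, as a check of the labelled carcinoma line, and all had log2 ratios above 0, with a median of 0.31 and a summed signal of 341413 and 392883. Most of that sum came from Krt18 (206389 and 231164), which lay in the far edge, as did Cdh1 and Epcam. Cldn7 (0.85), Cldn3 (0.78) and Esrp1 (0.62) were selected as higher, and Krt19 had 0.54. Myh14 and Myo5b, both epithelial motors, were higher on the same array as these markers. Other myosins of epithelia were within their error, Myo5c with 0.13 ± 0.21 and Myo1a with -0.10 ± 0.22, both in the far edge. The part of epithelial state in the ratios of these myosins was not tested. Leukocyte markers numbered 10, of which 4 were measured. Their median was -0.40, with a summed signal of 9951 and 6261, of which Itgam alone gave 7301 and 3795. Itgam was selected as lower (log2 ratio -0.94 on its brightest probe, -0.67 and 0.38 on the others), Cd3e had -0.47, Cd68 had 0.44 and Csf1r had -0.34, while Ptprc and Lyz2 were not measured. Of 5 hair cell markers, 1 was measured, Otof (log2 ratio -0.23).

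Among unconventional myosins, class V held the gene selected as higher. Myo5b, which binds RAB11 on recycling endosomes and is needed for apical membrane traffic in epithelia, had 508 in ALDH-negative cells against 790 in ALDH-positive ones, with a log2 ratio of 0.64 ± 0.20 and a Z-score of 2.74. Its ratio of 1.56 was just inside the limit of 1.5, and the probe was in the far edge. None of its 73 neighbours on the array was selected as higher.

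A second Myo5b probe, outside that area, had 83.1 and 114 (log2 ratio 0.45 ± 0.21). The third, in the far edge, had 10.3, not well above background, and 19.8 (log2 ratio 0.95 ± 0.53, at least 1.504-fold higher). The first and second probes both had log2 ratios above 0 and beyond their error, and only the first was selected. The third passed the filter through the ALDH-positive array alone, so its direction adds nothing to them. Myo5a, the carrier of melanosomes and other vesicles, had 1825 and 1825 (log2 ratio 0.00029 ± 0.20), and Myo5c, of exocrine epithelia, had 164 and 179 in the far edge (log2 ratio 0.13 ± 0.21).

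Myo3b, a class III myosin with a kinase domain that is known from sensory cells, was the 1 myosin selected as lower. It had 362.3 in ALDH-negative cells against 249 in ALDH-positive ones, with a log2 ratio of -0.54 ± 0.20 and a Z-score of -2.14, close to the limit of -2.0. Of the 130 measured neighbours of Myo3b on the array, 6 were selected as lower and 0 as higher. Its single probe (NCBI37, chr2:69964989-69965048, plus strand) is shown by its first 30 bases, because the call rests on it alone.
Myo3b, from base 756: gagatggagaccctcccctctttgaaatgc
Myo3a, its paralogue, was not measured.

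Class I myosins are single-headed motors that bind membranes. Myo1d had 1186 and 1615 (log2 ratio 0.45 ± 0.20). Its Z-score of 2.29 passed and its ratio of 1.36 did not, so it was the nearest of the class to selection. Myo1e, which acts in endocytosis and in the podocyte, had 2233 and 2789 (log2 ratio 0.32 ± 0.20). Both exceeded their error in the same direction.

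Further class I genes were within their error. Myo1c, which acts in vesicle exocytosis, had 4356 and 4684 in the far edge (log2 ratio 0.10 ± 0.20) and on a dimmer probe 49.4 and 55.5 (log2 ratio 0.17 ± 0.24). Myo1a, of the intestinal brush border, had 92.8 and 86.5 in the far edge (log2 ratio -0.10 ± 0.22, but 0.0080 with normexp background correction). Myo1h had 166 and 166 (log2 ratio 0.00050 ± 0.21, and below 0 with the 75th percentile scaling). Myo1f and Myo1g, which are typical of leukocytes, were not measured.

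Classes VI and X move cargo and extend filopodia. Myo6, the motor that walks toward the minus end of actin, had 31.5 and 44.8 (log2 ratio 0.51 ± 0.26), which was 0.18 without background subtraction. Myo10, of filopodial tips, had 182 and 153 (log2 ratio -0.25 ± 0.21). Both were beyond their error and neither was selected. Myo19, which moves mitochondria, had 1345 and 1394 (log2 ratio 0.051 ± 0.20), and its dim probe, in the far edge, had 23.3 and 24.3 (log2 ratio 0.062 ± 0.38). Myo7a, Myo7b, Myo15 and Myo16 were not measured, and the 7 unmeasured unconventional myosins had signals between 2.80 and 15.9.

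Class IX myosins carry a RhoGAP domain, which turns off RHOA and so acts upstream of myosin II. Myo9b had 11516 and 12132 (log2 ratio 0.075 ± 0.20) on the brighter probe, in the far edge, and 1031 and 1042 (log2 ratio 0.015 ± 0.20) on the other. Myo9a had 191 and 178 on its brightest probe (log2 ratio -0.10 ± 0.21), 97.8 and 39.6 on the next (log2 ratio -1.30 ± 0.23, Z-score -2.51) and 53.3 and 38.8 on the dimmest, in the far edge (log2 ratio -0.46 ± 0.26). The Myo9b probes differed by less than their error, whereas those of Myo9a differed by 1.20 with an error of 0.31, and its second probe was selected as lower while the gene was not. The first 30 bases of the 2 brighter probes are given to show which stretch each measures.
Myo9a, from base 9350 (NCBI37, chr9:59774050-59774109, plus strand): gtagtttccataagttataatgtcagaagc
Myo9a, from base 3602 (NCBI37, chr9:59717487-59717546, plus strand): tacctgtatacaatcaagatggaggggcta

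Class XVIII myosins bind actin but have little motor activity. Myo18a, which links the Golgi to actin, gave 4 measured probes that did not move together. Each is assigned to a different transcript entry in the array files. The brightest had 5020 and 4732 (log2 ratio -0.085 ± 0.20), the next 2337 and 2787 (log2 ratio 0.25 ± 0.20), the third 2021 and 1442 (log2 ratio -0.49 ± 0.20) and the dimmest 36.5 and 70.9 (log2 ratio 0.96 ± 0.24). The third was selected as lower and lay in the far edge, where 10 of its 120 measured neighbours were selected as lower and 10 as higher. The range of 1.45 over the 4 probes exceeded its error of 0.32, so the single value given for Myo18a depends on the probe. Myo18b, a muscle protein by its known role, had 883 and 708 (log2 ratio -0.32 ± 0.20) and on a dimmer probe 33.4 and 21.2 (log2 ratio -0.65 ± 0.31). Both were below 0 by more than their error. The brighter probe starts at base 819 of its transcript. Further probes of that transcript, from bases 7986 and 8214, were not well above background on either array.

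By probe, 2 of the 50 measured myosin probes were selected as higher, against 1.45% of all measured probes, and 3 as lower, against 2.88%. The 3 lower ones were those of Myo3b, Myo9a and Myo18a. Of the 50, 16 lay in the far edge, 2 of the selected ones (Myo5b and Myo18a) among them. Several measured probes were present for 11 genes, of which Myh9 and Myo18a had probes on opposite sides of 0, and the range exceeded its error in these and in Myo9a. The median range was 0.22 for these genes and 0.20 for 4032 genes with several probes, of which 1805 had opposite signs.

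**Figure D3:**
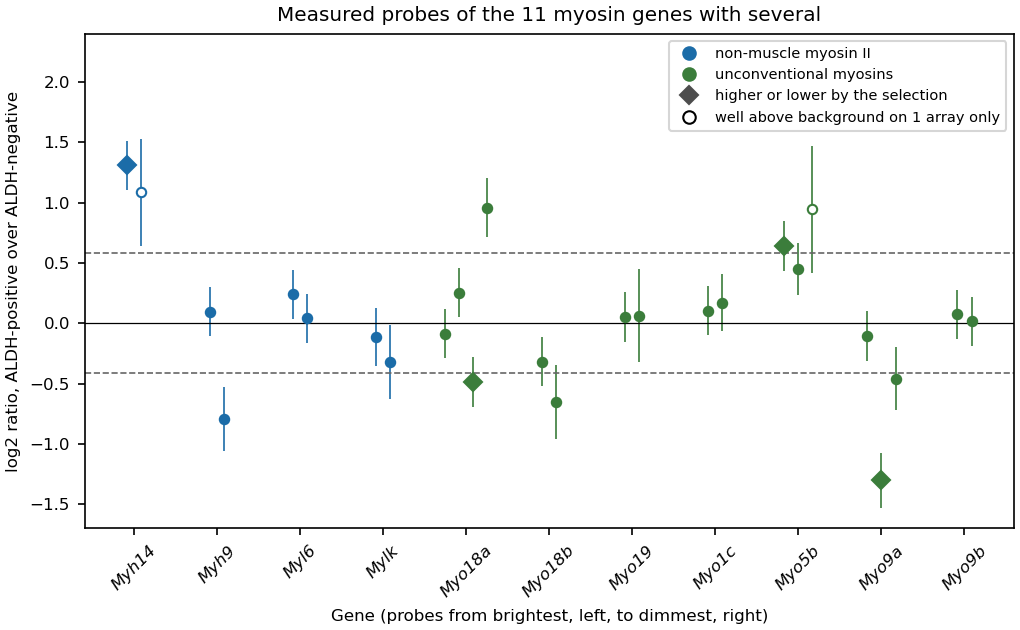
Log2 ratios (ALDH-positive over ALDH-negative) of each measured probe of the 11 myosin genes with several, ordered from the brightest to the dimmest, with the scanner software's error as bars. Dashed lines are ratios of 0.75 and 1.5, diamonds are selected probes, and open circles were well above background on 1 array only. The probes of Myo18a run from -0.49 to 0.96, and those of Myo9a from -1.30 to -0.10.

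Genes that act on or with myosins were set beside them. Of 28 regulators of myosin II (small GTPases, kinases, phosphatase subunits, calmodulins and chaperones), 27 were measured and none was selected, with a median log2 ratio of 0.022. Farthest from 0 were Ppp1r12b, a targeting subunit of myosin phosphatase, with 55.8 and 35.6 (log2 ratio -0.65 ± 0.24) and other probes from -2.52 to 0.59, and Dapk1, a death-associated kinase, with 56.7 and 83.8 (log2 ratio 0.56 ± 0.22). Dapk2 had 274 and 350 (log2 ratio 0.36 ± 0.20), and Rock1, a main kinase of the RHOA pathway, had 280 and 224 (log2 ratio -0.32 ± 0.21) in the far edge, with 0.13 on its other probe. Probes of Ppp1r12b and of Rock1 thus lay on both sides of 0. The remaining regulators lay nearer to 0.

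Of 18 actin filament partners, 17 were measured, with a median of 0.050. Espn, the actin bundler espin of microvilli and stereocilia and a known cargo of class III myosins, was selected as higher, with 125 and 299 (log2 ratio 1.26 ± 0.21). Its other measured probe had 1.12. Espn and Myo3b were thus on opposite sides of 0. Anln (0.24), Svil (0.16) and Ezr (0.11) followed by distance from 0, and the other probes of Svil had -0.36 and -0.18.

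Of 19 cargo partners of unconventional myosins, 15 were measured, with a median of -0.037. Calcoco2, an autophagy receptor that binds myosin VI, was selected as lower, with 94.8 and 41.1 (log2 ratio -1.21 ± 0.23) and -0.74 on its other probe, while Myo6 itself had 0.51. Cdhr5, a cadherin of the brush border, had 2.96, not well above background, and 15.5, at least 1.18-fold higher. Cdhr2, its partner, had 905 and 733 (log2 ratio -0.30 ± 0.20), and Rab11fip1, of the RAB11 compartment that Myo5b serves, had 58.3 and 48.3 (log2 ratio -0.27 ± 0.24). The list as a whole stayed close to the median of all measured genes.

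**Figure D4:**
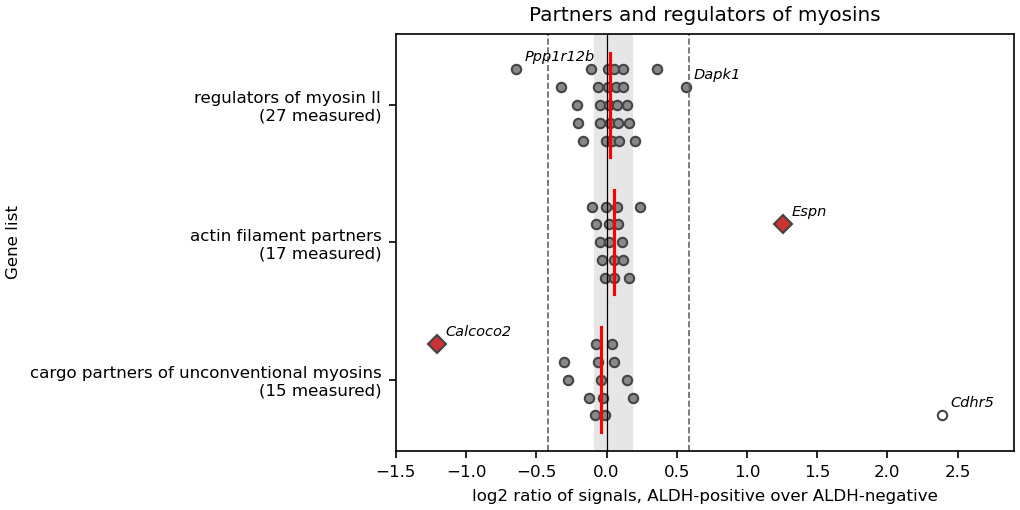
Log2 ratios (ALDH-positive over ALDH-negative) of measured genes of 3 lists related to myosins. Red lines are list medians, the grey band holds the middle 50% of all measured genes, dashed lines are ratios of 0.75 and 1.5, and open symbols were well above background on 1 array only. Espn (1.26) and Calcoco2 (-1.21) are the selected genes, drawn as red diamonds.

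Promoter windows from RefSeq (GRCm38.p6, 250 bases before to 50 after each start) were found for 46 of the 53 genes, 58 windows in all. The E-box CACGTG, the element bound by CLOCK that the study works with, was in 2 member windows (3.45%), of Myh7b and Myl12a, and in 7.15% of all 32851 windows. The CArG box, the element of serum response factor, was in 7 member windows (12.1%) and in 1.63% of all windows. It was found at Myl9, Myl6, Myo1e, Myl3, Myl7, Myh4 and Myh13, and neither Myh14 nor Myo3b, the selected genes with a window, held either motif. Both patterns are their own reverse complement, so a search of 1 strand covers both. A match is a description of the letters and not a bound site.

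The motif is shown in capitals with 10 bases on either side for the non-muscle and unconventional myosins with a match, the classes with most of their genes well above background on both arrays, with the position of its first base from the transcript start.
Myl9, CArG box at -161: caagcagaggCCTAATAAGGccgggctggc
Myl6, CArG box at -50: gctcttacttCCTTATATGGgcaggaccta
Myo1e, CArG box at -32: gctgaattctCCATTTATGGacagattgcc
Myl12a, E-box at -50: cagggccagtCACGTGacgtccgcgg
The log2 ratios of these genes were 1.20 for Myl9, 0.24 for Myl6, 0.32 for Myo1e and -0.045 for Myl12a, as given above. Of the muscle genes with a match, Myh7b (E-box) had 0.17, Myl3 had 0.39 and Myh4 had 2.35, while Myl7 and Myh13 were not measured. The genes with an E-box thus lay on both sides of 0. Myl9, Myl3 and Myh4 passed the filter through the ALDH-positive array alone. A relation between motif and ratio was not tested.

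The 3 selected genes were not equally steady under other processing. Myh14 was selected under all 11 alternatives that could give its value, with log2 ratios from 1.20 to 1.37. Myo3b was selected under 9 of 11, from -0.54 to -0.45, and Myo5b under 6 of 11, from 0.45 to 0.69. The log2 ratio kept its sign under every alternative run for 29 of the 35 measured genes, and the exceptions were Myh9, Myl12a, Mylk2, Myo18a, Myo1a and Myo1h. Many alternatives could not change these values. The other Z-score settings leave every log2 ratio as it was, and the other filters do so where the brightest probe is kept. The deposited values come from the same arrays. These counts are therefore not a measure of how well a value would repeat.

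**Figure D5:**
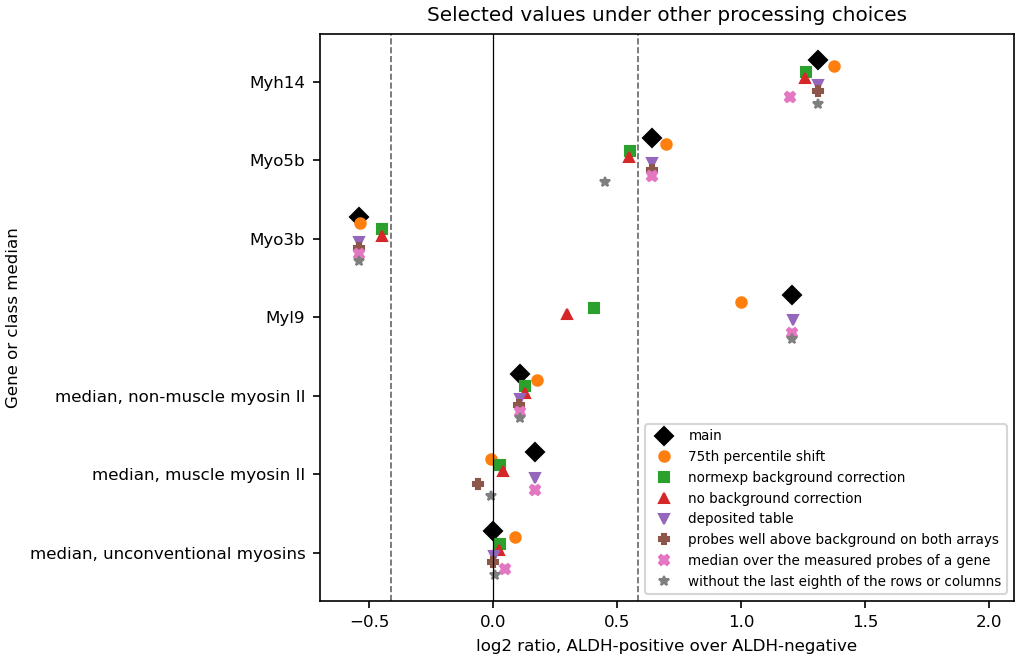
Log2 ratios (ALDH-positive over ALDH-negative) of 4 myosin genes and of the class medians under the main processing (black diamonds) and 7 other choices, with dashed lines at ratios of 0.75 and 1.5. Myh14 stays beyond the limit under each choice, Myo5b lies on either side of it, and Myl9 ranges from 0.30 to 1.21.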

How the data were processed

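Per the labels and the methods, the authors labelled 50 ng of total RNA per population with Cy3 and used Agilent SurePrint G3 Mouse GE 8×60K arrays in 1 colour. Per the file headers, the deposited intensity values came from Feature Extraction 10.7.1.1 (9.5.1.1 in the labels), background-subtracted and detrended, with probe positions on NCBI37. The RNA kit differs between the labels (ReliaPrep) and the methods (RNeasy). The authors also deposited quantile-normalized intensity values, which gave log2 ratios of myosins within 0.0053 of those used here.

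Control spots and population outliers were left out, repeated spots were averaged as log2 values, signals under 1 were set to 1, and both arrays were quantile-normalized (Python 3.11.15, numpy 2.4.6, pandas 2.3.3). The selection follows the methods, which do not define the Z-score. The normexp alternative used limma 3.58.1 in R 4.3.3 with an offset of 50. Fold bounds set the brighter signal against the higher of the dim probe's own signal and the lowest signal well above background on its array, 13.1 for ALDH-negative and 12.7 for ALDH-positive cells.

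Measured members are named, apart from an item that is not reported here, and of each other list every selected gene and up to 4 genes in all, the rest by distance from 0. The members and lists were chosen with earlier results of these data known. No annotation of NCBI37 was used here, so exons and UTRs are not given.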

Additional observations from a re-analysis of the deposited data

How the results depend on the processing

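The count of myosin genes selected as higher, 2, became 1 with normexp, without background correction, with the median over a gene's probes, and without the probes of the array's far edge. In each of these Myo5b was the gene no longer selected (log2 ratios 0.55, 0.55, 0.64 and 0.45). With the Z-score over all probes it was also not selected, and Myh4 was selected in its place. The count selected as lower, 1, became 0 with normexp and with the Z-score over all probes, and 2 with all probes, where Myh11, not well above background, was added. The ratio limits alone, an alternative chosen after seeing the data, gave 5 higher (Myh14, Myo5b, Myl9, Myh4 and Myh8) and 2 lower (Myo3b and Myh6). The share of all measured genes beyond these limits was not worked out, so these counts are not a result about myosins. Among these genes, Myl9, Myh4, Myh8 and Myh6 passed the filter on 1 array alone, which favours a wide ratio. The cause of these differences was not tested.

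The class medians lay within 0.10 to 0.18 for non-muscle and 0.00050 to 0.088 for unconventional myosins. That of muscle myosin II moved most and ranged from -0.062 to 0.17 and was below 0 for probes above background on both arrays, with the 75th percentile scaling (-0.0081) and without the far edge (-0.0087). The median of all genes lay between 0.017 and 0.091 throughout. Counts over all genes also moved. From 188 higher (1.34%) they fell to 101 with normexp (0.722%) and 91 without background correction (0.651%). They were 110 for probes above background on both arrays (0.834% of 13182 genes) and 97 without the far edge (0.851% of 11394 genes). From 287 lower (2.05%) they fell to 184 with the Z-score over all probes (1.32%) and 184 without the far edge (1.61% of 11394 genes). Of 372 single gene values, 352 kept their call or, where not selected, moved by less than their error. Values whose log2 ratio an alternative could not change are among them.

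No paired analysis was possible because each population had a single array. The number of arrays limits precision: no spread between cultures is known, and dim probes are the ones that moved most.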
